A study of Bos indicus with 5 samples.

Results

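The genes described here encode amino acid and peptide transporters of the bovine oviduct ampulla, the wide part of the oviduct between the infundibulum and the isthmus. They were taken from the normalized read table of the ampulla by their symbol, which had to start with SLC, a family number of 1, 3, 6, 7, 15, 36, 38 or 43, and the letter A followed by a number. This rule used no measured value and found 61 of 24616 genes, with 60 distinct symbols because SLC6A9 was held by 2 Ensembl identifiers. One of them, SLC7A6OS, is not a transporter: it is named for lying on the strand opposite SLC7A6, and it was kept because the rule takes it. The samples were ampullae of multiparous Nelore (Bos indicus) cows, taken on day 4 after induction of ovulation from the oviduct on the side of the corpus luteum (CL). All cows had been synchronized with a GnRH agonist (buserelin acetate, 1 µg) and a prostaglandin F2 alpha analog (sodium cloprostenol, 0.5 mg), and had then received a 1 g intravaginal progesterone device with 2 mg estradiol benzoate. Cows meant to grow a large follicle and a large CL (LF/LCL, n = 2) lost the device 42 h before ovulation was induced with GnRH, and were also given cloprostenol when the device was inserted. Cows meant to have a small follicle and a small CL (SF/SCL, n = 3) lost it 30 h before GnRH, with no cloprostenol at insertion. Both groups received cloprostenol at device removal and again some hours later. Each library came from 1 cow, and the cows were picked from the top of the ranking of LF/LCL and the bottom of that of SF/SCL, so that the libraries stand for the ends of each group. One further LF/LCL library was discarded by the study for its low number of reads and was not analysed here.

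Amino acids are polar, and cells take them up, release them and exchange them through membrane carriers of several solute carrier (SLC) families. Some carriers use the sodium gradient to accumulate their substrate, some use protons, and others are exchangers that swap one amino acid for another and depend on the former for their supply. The oviduct epithelium secretes a fluid rich in amino acids, in particular glycine, glutamate, alanine and taurine, which bathes the gametes and the early embryo. Some amino acids, such as glycine and taurine, also serve as osmolytes for the embryo.

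All values below are normalized reads, which are read counts divided by the size factor of the library. They are not per length, so that levels of different genes are not compared, and each gene is compared with itself across libraries. The 5 libraries held from 13418278 to 19592174 assigned reads, of which 0.155% to 0.201% belonged to the transporter genes. The labelled tissue was checked only by markers of the oviduct epithelium. No other part of the oviduct was compared, so they do not test the ampulla label. OVGP1, the main secretory glycoprotein of the oviduct epithelium, was between 117179 and 147247 in the 5 libraries, and FOXJ1, the regulator of motile cilia, was between 8481 and 12698. The pieces covered the whole wall of the ampulla and the libraries differed in their makeup. The summed reads of the 11 smooth muscle markers were 63110 to 121924 in LF/LCL and 15839 to 42017 in SF/SCL, and those of the 14 ciliated cell markers were 60061 to 77400 in LF/LCL and 85121 to 91634 in SF/SCL. In whole tissue, fewer cells of a type and less RNA per cell cannot be told apart.

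Of the 61 genes, 47 had a mean above 5 normalized reads and were tested, 11 had at least 1 read but a mean of at most 5, and 3 were listed at 0 in every library. The means of 9 genes were at least 1000, those of 35 were from 15 to under 1000 and those of 17 were under 15. The genes at 0 were SLC1A2, a glutamate carrier of glia, SLC6A3, the dopamine carrier, and SLC6A18, a neutral amino acid carrier of the kidney. The 11 genes with few reads had at most 12 reads in any library and at most 20 reads over the 5 libraries, which is too few to show a difference between groups.

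No transporter passed an adjusted p of 0.05 in limma, and neither did any of the 15815 genes tested (percent called 0). With edgeR's quasi-likelihood test on the recovered reads the count was also 0 for the transporters and for all genes. At an unadjusted limma p under 0.05 there were 9 of 47 transporters (19.1%), beside 11.5% of all genes tested. Of these, 4 were higher in LF/LCL (8.51%, beside 5.64% of all genes) and 5 were higher in SF/SCL (10.6%, beside 5.86%). The same count in edgeR was 9 of 47, beside 11.6% of all genes. The limma count fell to 5 when either LF/LCL replicate 1 or SF/SCL replicate 2 was left out. DESeq2, applied to the recovered reads, called 3 transporters at an adjusted p of 0.05, beside 3.03% of the 15201 genes for which it gives one. These were SLC38A11 and SLC7A8 with more reads in SF/SCL (4.26%, beside 1.57% of all genes) and SLC43A3 with more reads in LF/LCL (2.13%, beside 1.46%). Of these 3, SLC38A11 and SLC43A3 do not pass a further filter that the study describes, a mean above the SD, when taken over the 5 libraries. The study nonetheless names SLC38A11 among its SF/SCL ampulla genes. It also gives 15815 genes after both filters, the number found here with a mean over 5 alone. With the filter on the mean over the SD 45 transporters were left, and 7 of them had an unadjusted limma p under 0.05. The shares of all genes at this p, with that filter or with a library left out, are not given here. The counts of these fits are therefore not read against all genes.

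**Figure D1:**
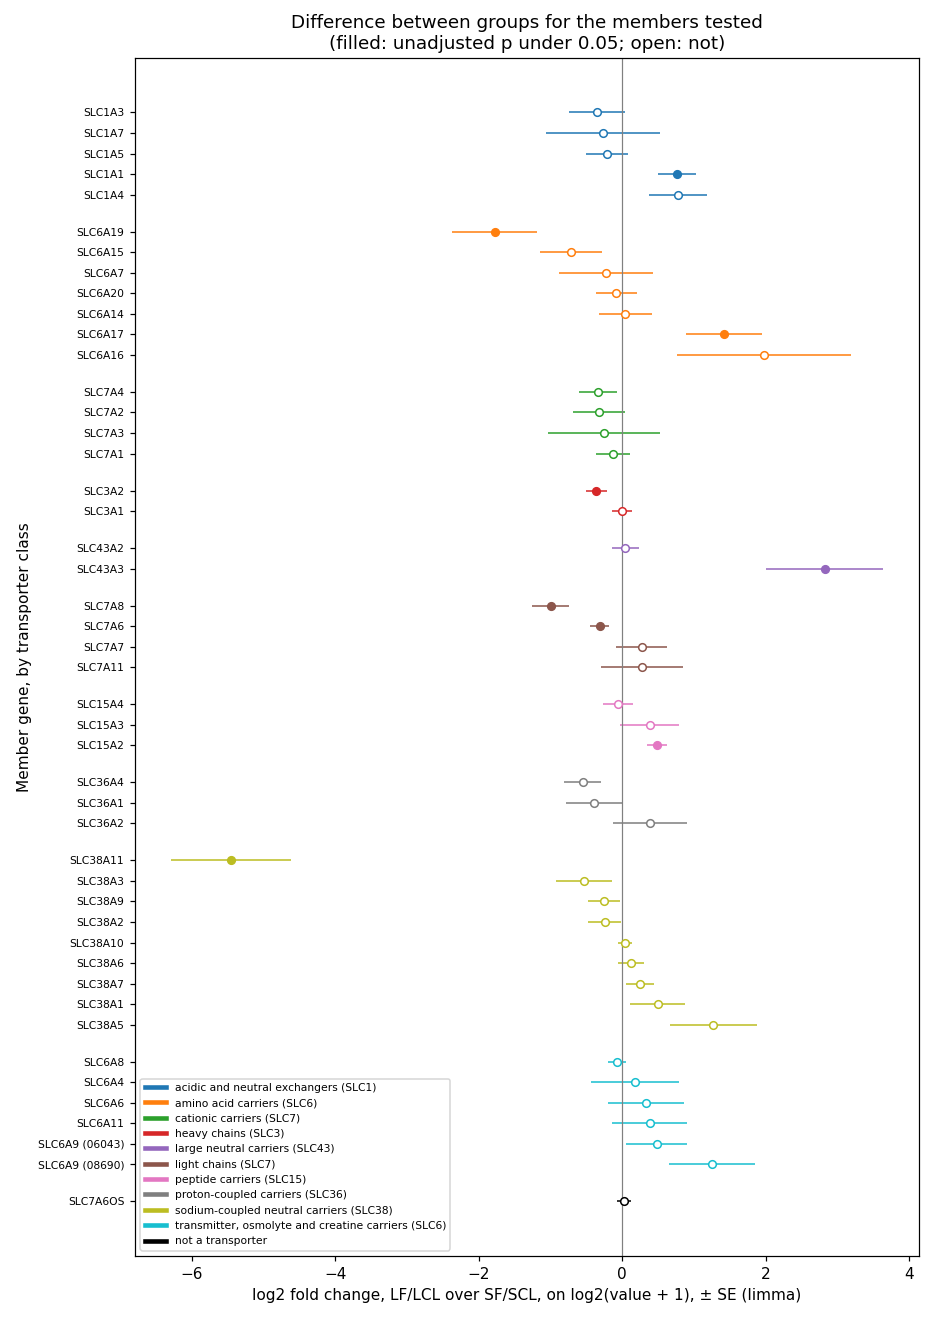
The log2 fold change of LF/LCL over SF/SCL is plotted with its standard error (limma, on log2(value + 1)) for 46 of the 47 transporter genes tested, grouped by transporter class, with filled points for an unadjusted p under 0.05. Of the 46 points 23 lie above 0 and 23 below, and the 9 filled points are split into 4 above and 5 below.

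The direction was divided evenly. The log2 fold change was above 0 for 24 of 47 transporters (51.1%, beside 50.8% of all genes), and its median was 0.03 for the transporters and 0.01 for all genes tested. The groups did not overlap in 14 transporters (29.8%, beside 30.1% of all genes), with 7 in each direction (14.9%, beside 15% of all genes higher in LF/LCL and 15.1% lower). This share lies at the level of all genes and is no result about the transporters. The size of the differences was larger than for all genes, with a median absolute log2 fold change of 0.33 against 0.21, but so was the spread within groups, with a median residual SD of 0.43 against 0.23 on the log2 scale. No library stood apart for the transporters as a whole. Each library was the lowest of the 5 in 8 to 11 of the 47 genes and the highest in 6 to 12.

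Among the sodium-coupled neutral carriers of the SLC38 family, which take up glutamine, alanine and related amino acids, SLC38A11 gave the smallest p of all transporters. This carrier is little characterized. It had 0 reads in both LF/LCL libraries, and 18.7, 39.6 and 105 normalized reads in SF/SCL replicates 1, 2 and 3. The groups did not overlap, and the SF/SCL libraries differed among themselves severalfold. With a floor of 3 reads over the LF/LCL group, SLC38A11 was at least 34.3-fold higher in SF/SCL (54.5 ± 45.1, SD, n = 3). The adjusted p was 0.178 in limma, the smallest of all genes tested and shared by 60 genes, and 0.000367 in DESeq2. It passed the filter on low values through SF/SCL alone, the group in which it was high, so these p-values describe the difference and do not support it.

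The other SLC38 genes showed smaller differences. SLC38A2, the carrier of system A that cells raise when amino acids run short, was at 2120.4 and 1629 in LF/LCL and at 1842, 1983 and 2912 in SF/SCL. Its groups overlapped (log2 fold change -0.24 ± 0.23, SE; limma adjusted p = 0.740). SLC38A10 was the most even of the family across cows, at 1452 and 1546 in LF/LCL compared with 1465, 1474 and 1433 in SF/SCL (log2 fold change 0.04 ± 0.09, SE). SLC38A5 and SLC38A3 are system N carriers that move glutamine and histidine. SLC38A5 was higher in both LF/LCL libraries (48.1 and 47.4, against 36.4, 9.33 and 20.4) and SLC38A3 was lower in both (38.7 and 27.1, against 41.6, 62.2 and 40.8), and neither had an unadjusted limma p under 0.05 (0.0817 and 0.225). SLC38A9, the lysosomal carrier that senses arginine for mTORC1, had overlapping groups with means of 246 ± 10.8 (SD, n = 2) and 298 ± 67.0 (SD, n = 3). SLC38A1, SLC38A6 and SLC38A7 had log2 fold changes of 0.49, 0.12 and 0.25, and all of their groups overlapped.

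Several carriers of the SLC7 family work only as the light chain of a dimer, whose heavy chain, an SLC3 protein, brings it to the membrane. SLC3A2, the heavy chain also known as CD98, was at 2866 and 3381 in LF/LCL and at 4583, 3734 and 3724 in SF/SCL. All SF/SCL libraries were above both LF/LCL libraries, and SF/SCL replicate 1 was the highest. Its log2 fold change was -0.36 ± 0.14 (SE), with an adjusted limma p of 0.420 (unadjusted 0.0424). The unadjusted p was under 0.05 in 3 of the 5 fits without a library, and it was 0.225 without LF/LCL replicate 1 and 0.113 without SF/SCL replicate 1. SLC7A8, a light chain of SLC3A2 that exchanges neutral amino acids of all sizes, was at 124 and 133 in LF/LCL and at 262, 329 and 199 in SF/SCL. Every SF/SCL library was above both LF/LCL libraries, which lay close to each other. The log2 fold change of -0.999 ± 0.25 (SE) corresponds to a 2.00-fold higher level in SF/SCL. The adjusted p was 0.298 in limma and 0.0334 in DESeq2, and the unadjusted limma p remained under 0.05 whichever library was left out. SLC7A6, a light chain of SLC3A2 that exchanges cationic for neutral amino acids with sodium, was at 430.4 and 446 in LF/LCL and at 500.1, 574 and 564 in SF/SCL. Again no library of one group reached the other (log2 fold change -0.31 ± 0.13, SE; limma unadjusted p = 0.0479, adjusted p = 0.427), and the unadjusted p was under 0.05 in 1 of the 5 fits without a library. It was 0.0590 in DESeq2, 0.0525 in voom and 0.0561 in limma without the filter.

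The 2 remaining light chains tested differed in the other direction, by less than their error. SLC7A7, the partner of SLC3A2 for export of cationic amino acids, gave 0.27 ± 0.36 (log2 fold change, SE), and SLC7A11, the cystine/glutamate exchanger that feeds glutathione synthesis, gave 0.28 ± 0.57. SLC3A1, the heavy chain of the cystine carrier of the kidney, had overlapping groups, at 387 and 355 in LF/LCL, against 392, 339 and 384 in SF/SCL. Its light chain SLC7A9 had reads in LF/LCL replicate 2 only, at 1.94 normalized reads. SLC7A6OS, which neighbours SLC7A6 in the reference gene table, was at 1023 and 1069 in LF/LCL compared with 1001, 1039.8 and 1037 in SF/SCL. Since it is not stated whether strand was used in counting, reads of SLC7A6 and SLC7A6OS may not be fully separated.

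The SLC7 genes classed here as cationic carriers are those that need no heavy chain. Of these, SLC7A1, SLC7A2 and SLC7A3 take up arginine, lysine and ornithine. All 4 genes of the class that were tested, SLC7A1, SLC7A2, SLC7A3 and SLC7A4, had a log2 fold change below 0, from -0.34 to -0.13. None had an unadjusted p under 0.05. Each of them had overlapping groups. Their summed reads did not overlap, at 636 and 743 in LF/LCL, against 860, 769 and 835 in SF/SCL.

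The SLC1 family holds the carriers of glutamate and the small neutral amino acid exchangers. SLC1A1, which takes up glutamate, aspartate and cysteine, was at 2191 and 2697 in LF/LCL and at 1962, 1403 and 1062 in SF/SCL. Both LF/LCL libraries were above all SF/SCL libraries, the nearest being SF/SCL replicate 1. Its log2 fold change was 0.76 ± 0.26 (SE), 1.70-fold, with an adjusted limma p of 0.375 (unadjusted 0.0276). The unadjusted p was 0.136 without LF/LCL replicate 2 and 0.0661 without SF/SCL replicate 2, and under 0.05 in the other 3 fits without a library. SLC1A4, an exchanger of alanine, serine and cysteine, was at 6360 in LF/LCL replicate 1, far above the 2460.5 of LF/LCL replicate 2 and the 1946, 2722 and 2329 of SF/SCL. Its log2 fold change of 0.78 ± 0.40 (SE) therefore rested on 1 library: it was 0.09 without LF/LCL replicate 1 and 1.46 without LF/LCL replicate 2. SLC1A5, the main exchanger for glutamine, behaved in the opposite way in these libraries, with the lowest value in LF/LCL replicate 1 and the highest in LF/LCL replicate 2 (582 and 1199, against 955, 978 and 971 in SF/SCL). Its log2 fold change was -0.21 ± 0.29 (SE) and became 0.31 without LF/LCL replicate 1. SLC1A3 and SLC1A7, both glutamate carriers, had overlapping groups and log2 fold changes of -0.35 and -0.27.

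Of the peptide carriers of the SLC15 family, which move di- and tripeptides with protons, SLC15A2 had the smallest p. This high-affinity carrier was at 4082 and 3696 in LF/LCL and at 3075, 2927 and 2363 in SF/SCL. Both LF/LCL libraries were above every SF/SCL library. The means were 3889 ± 274 (SD, n = 2) and 2788 ± 376 (SD, n = 3), a log2 fold change of 0.49 ± 0.14 (SE) or 1.40-fold, with an adjusted p of 0.327 in limma (unadjusted 0.0138) and 0.118 in DESeq2. The unadjusted limma p was under 0.05 in 4 of the 5 fits without a library, the exception being the fit without LF/LCL replicate 1 (0.0789). SLC15A3 and SLC15A4, which act in lysosomes of immune cells, overlapped between groups, with log2 fold changes of 0.38 and -0.05.

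The SLC6 carriers of amino acids are driven by sodium and chloride. SLC6A19, the neutral amino acid carrier of intestine and kidney, had few reads, at 5.86 and 9.68 in LF/LCL compared with 16.6, 45.1 and 30.0 in SF/SCL. All SF/SCL libraries were above LF/LCL (log2 fold change -1.78 ± 0.59, SE; limma unadjusted p = 0.0233, adjusted p = 0.362), and the unadjusted p was under 0.05 in 2 of the 5 fits without a library, those without LF/LCL replicate 2 or SF/SCL replicate 1. SLC6A17, a vesicular carrier of neutral amino acids known from neurons, differed in the opposite direction, at 110.2 and 140.4 in LF/LCL, against 84.2, 45.9 and 24.7 in SF/SCL. Here LF/LCL was higher in each library (log2 fold change 1.42 ± 0.53, SE; limma unadjusted p = 0.0363, adjusted p = 0.404), and the unadjusted p was under 0.05 in 1 of the 5 fits without a library. SLC6A16, an orphan carrier, was at 50.4 and 84.2 in LF/LCL and as far apart as 2.08, 31.1 and 47.2 in SF/SCL, so that its log2 fold change of 1.98 had an SE of 1.21. SLC6A20, the proline carrier, was at 445 to 844 in the 5 libraries, and SLC6A14, the carrier with the broadest range of amino acids, at 117 to 229. Both had overlapping groups and log2 fold changes of -0.08 and 0.04. SLC6A15 (-0.71) and SLC6A7 (-0.23) were also not separated between groups.

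The other SLC6 carriers move transmitters, osmolytes and creatine. SLC6A9 carries glycine, and nearly all its reads came from the gene ENSBTAG00000008690, at 4107 and 5211 in LF/LCL compared with 3154, 2843 and 815 in SF/SCL. Both LF/LCL libraries were above SF/SCL, and SF/SCL replicate 3 was far below all other libraries. The means were 4659 ± 781 (SD, n = 2) and 2271 ± 1271 (SD, n = 3), the log2 fold change was 1.25 ± 0.60 (SE) and the limma p was 0.0834 (adjusted 0.493). Without SF/SCL replicate 3 the log2 fold change was 0.63, with a limma p of 0.00968 (adjusted 0.382). The other gene with this symbol, ENSBTAG00000006043, was at 51.6 and 67.8 in LF/LCL, against 57.2, 46.6 and 27.9 in SF/SCL. It also was lowest in SF/SCL replicate 3, but its groups overlapped, and how reads were split between both identifiers is uncertain. SLC6A8, the creatine carrier, was at 1095 and 872 in LF/LCL compared with 1039, 1069 and 978 in SF/SCL (log2 fold change -0.07 ± 0.13, SE). SLC6A6, the taurine carrier, was at 16.3 to 46.9, the GABA carrier SLC6A11 was at 27.0 to 65.8, and the serotonin carrier SLC6A4 was at 21.3 to 71.5, with overlapping groups in each of them.

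SLC43A3 had the largest log2 fold change in favour of LF/LCL. It belongs to a family of carriers of large neutral amino acids by sequence, but is itself known as a carrier of purine nucleobases. It was at 90.3 and 265 in LF/LCL and at 31.2, 38.1 and 7.51 in SF/SCL. No SF/SCL library reached LF/LCL, whose libraries differed from each other by more than the lower of them did from the highest SF/SCL library. The log2 fold change was 2.82 ± 0.81 (SE), 7.07-fold, with an adjusted p of 0.323 in limma and 0.0119 in DESeq2. Its unadjusted limma p was 0.0132. Without LF/LCL replicate 2 the p was 0.0917 and the log2 fold change 2.05, and the latter was 3.59 without LF/LCL replicate 1 and 2.14 without SF/SCL replicate 3. SLC43A2, a true carrier of leucine and related amino acids, was at 218 to 275 in all libraries (log2 fold change 0.05 ± 0.19, SE). In the SLC36 family several members, though not all, move small amino acids with protons. Its SLC36A4 was at 147 and 138 in LF/LCL, against 278, 194 and 171 in SF/SCL (log2 fold change -0.55 ± 0.26, SE, with a limma unadjusted p of 0.0758). The groups of SLC36A1, an exporter of amino acids from lysosomes, and SLC36A2, a carrier of glycine and proline, overlapped.

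**Figure D2:**
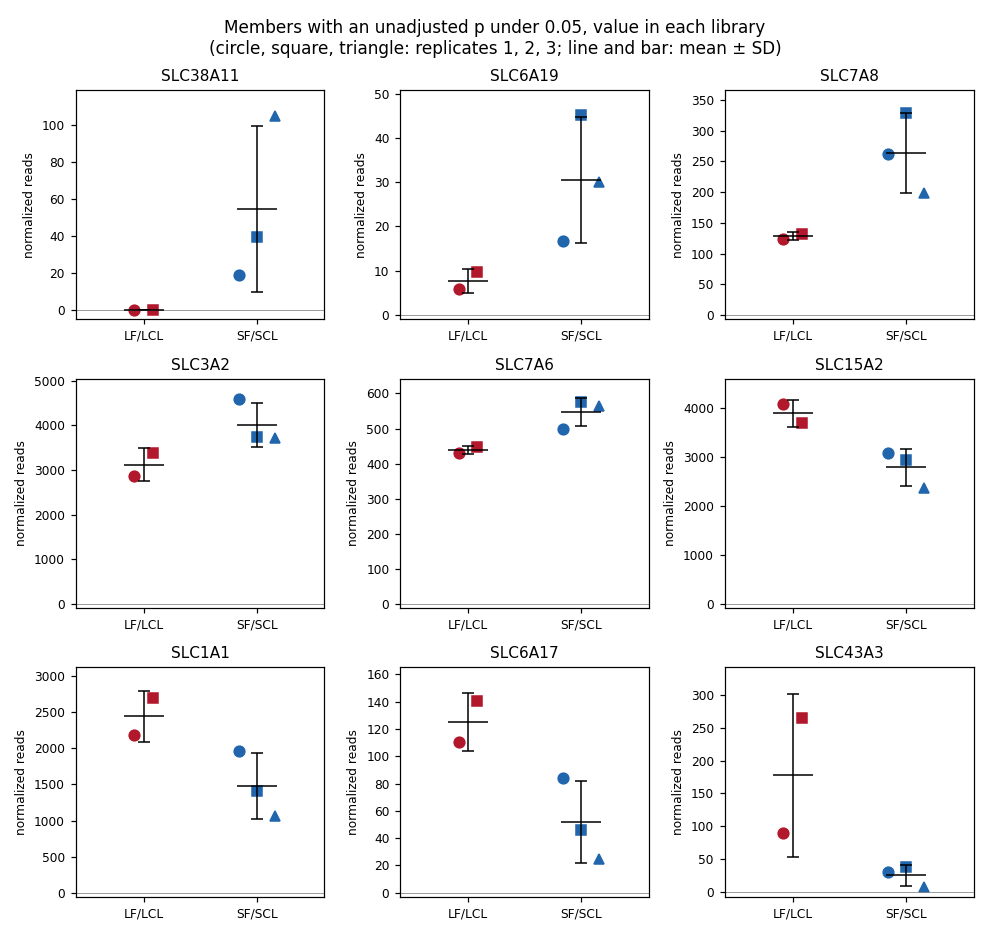
Normalized reads (linear axes) are plotted for each library of the 9 transporters with an unadjusted limma p under 0.05, with circles, squares and triangles for replicates 1, 2 and 3 and lines for the mean ± SD of LF/LCL (n = 2) and SF/SCL (n = 3). In each panel the groups do not overlap, SLC38A11 has 0 reads in both LF/LCL libraries, and the 2 LF/LCL libraries of SLC43A3 lie at 90.3 and 265.

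A set of 3 transporters placed the cows in the same order, a pattern chosen after the values were seen. SLC1A1, SLC6A17 and SLC6A9 (ENSBTAG00000008690) each had the highest value in LF/LCL replicate 2, followed by LF/LCL replicate 1 and SF/SCL replicates 1, 2 and 3. This order was found in 3 of 47 transporters (6.38%) and in 314 of 15815 genes (1.99%). Among these 314 genes were ALDH18A1 and LAMTOR2 of the related lists below, and S100B, listed here as a glial marker. S100B had 35927, 27894, 20009.9, 13945 and 9770 normalized reads in this order. It made up 98.9% to 99.5% of the summed neuron and glia markers. In the same order of libraries the other 11 markers of this list summed to 363, 285, 99.8, 141 and 107, so that they did not follow it. S100B was singled out after its values were seen, and the part of S100B-expressing cells in these transporters was not tested.

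Added up, the reads of all transporters were higher in LF/LCL than in SF/SCL. The sums were 31583 and 29288 in LF/LCL compared with 26577, 26075 and 23730.3 in SF/SCL, with means of 30435 ± 1623 (SD, n = 2) and 25461 ± 1519 (SD, n = 3). A sum gives most weight to the genes with most reads. Without SLC1A4, whose value in LF/LCL replicate 1 stood apart, the sums were 25223 and 26827 in LF/LCL, against 24630.3, 23354 and 21402 in SF/SCL. SLC1A4, SLC6A9, SLC15A2 and SLC1A1 all had higher means in LF/LCL. Without these symbols the 56 genes left summed to 14791 and 15156 in LF/LCL, against 16381, 16135 and 17133 in SF/SCL. The direction of the total therefore rested on these few symbols. By class, the sums of the SLC1, SLC15, SLC43 and transmitter, osmolyte and creatine carriers of SLC6 were higher in both LF/LCL libraries. Those of the SLC3 heavy chains, the SLC7 light chains and the SLC7 cationic carriers were higher in all SF/SCL libraries. The light chains summed to 719 and 724 in LF/LCL and to 871, 1003 and 952 in SF/SCL. The SLC38, SLC36 and amino acid SLC6 carriers overlapped. Class sums were also led by the genes with most reads. SLC1A4 gave 6360 of the 9248 normalized reads of SLC1 in LF/LCL replicate 1. The SLC43 sums separated through SLC43A3, since SLC43A2 overlapped, and SLC3A2 and SLC15A2 made up most of the sums of their classes. No share over sums of other genes is given here, so these separations are no result about the classes.

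**Figure D3:**
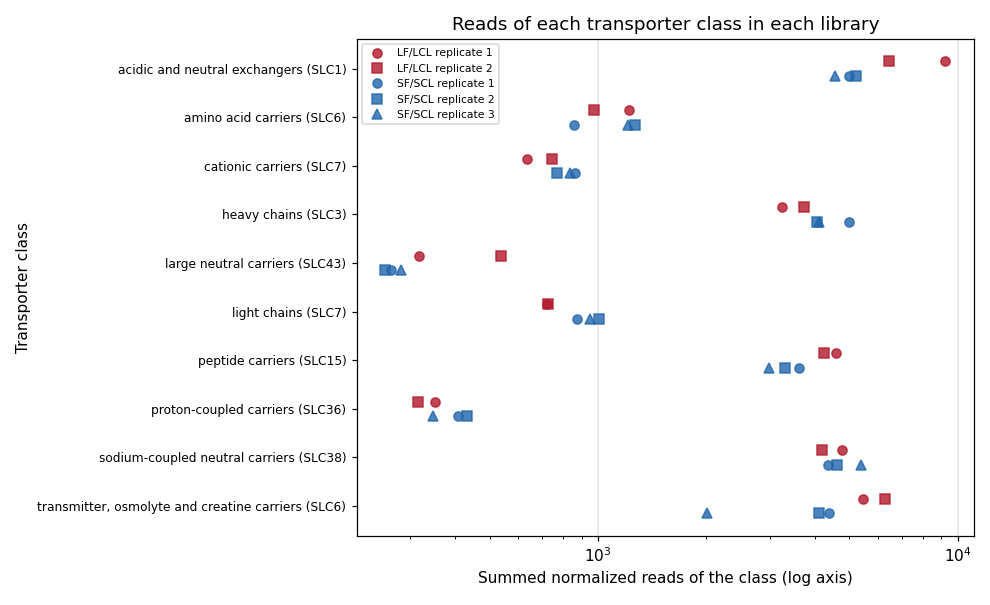
Summed normalized reads of each transporter class are plotted for every library on a log axis, with LF/LCL in red and SF/SCL in blue and circles, squares and triangles for replicates 1, 2 and 3. The heavy chains (3253 and 3736 against 4073 to 4975) and light chains lie higher in SF/SCL and the peptide carriers (4579 and 4250.2 against 2993 to 3626) higher in LF/LCL, while the SLC38 carriers overlap.

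Genes that work with the transporters were examined as lists. Of 124 genes tested in these lists, none had an adjusted limma p under 0.05 and 17 had an unadjusted p under 0.05 (13.7%, beside 11.5% of all genes). LF/LCL was the higher group for 6 of them and SF/SCL for 11. The count of 17 fell without LF/LCL replicate 1, but the share of all genes in that fit is not given here. Of the 18 partners and surface peptidases, CD44, which stabilizes the cystine carrier at the membrane, was higher in LF/LCL (352 and 308, against 139, 212 and 217). SLC9A3R1, a scaffold of apical carriers, and DPP4, a peptidase that releases dipeptides, were higher in SF/SCL, with log2 fold changes of -0.36 and -0.81. Both of these were below the lowest SF/SCL library in each LF/LCL library. The median of the list was -0.01. Among 15 amino acid transporters of other families, SLC16A10, a carrier of aromatic amino acids, was at 95.0 and 86.1 in LF/LCL compared with 181, 160.1 and 159.9 in SF/SCL. Its log2 fold change of -0.87 ± 0.21 (SE) had an adjusted p of 0.289 in limma and 0.0284 in DESeq2. MFSD12, a cysteine carrier of lysosomes and melanosomes, was also higher in SF/SCL (-0.47), and the median of the list was -0.05. The sign of the median of the partners, of the other transporters and of the mTORC1 and glutathione lists below changed when 1 library or another was left out, so none of them has a direction.

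The genes by which cells sense amino acids were examined next. Of 27 genes of mTORC1 sensing, RRAGB, a Rag GTPase, and SESN2, a leucine sensor, were higher in SF/SCL at an unadjusted p under 0.05, with log2 fold changes of -0.54 and -0.86, and the median of the list was -0.03. Of 26 genes of the ATF4 response to a lack of amino acids, 19 had a log2 fold change above 0 (beside 50.8% of all genes) and 7 had an unadjusted p under 0.05. The synthetases AARS and GARS, which charge tRNA with alanine and glycine, and ALDH18A1, an enzyme of proline synthesis, were higher in LF/LCL, by log2 fold changes of 0.49, 0.41 and 0.88. ASNS, the asparagine synthetase, DDIT4, SESN2 and the factor ATF5 were higher in SF/SCL, by -0.38, -0.69, -0.86 and -0.48. DDIT4, SESN2 and ATF5 are named beside the 4 of smallest p so that each of the 7 is given. The median of this list was 0.18. Among 14 enzymes of glutamine and glutamate, GLUL, which makes glutamine, was at 3558 and 2874 in LF/LCL, against 2513, 2052 and 1989 in SF/SCL, while GPT and ASNS were higher in SF/SCL. No library of one group reached the other for GLUL (log2 fold change 0.56 ± 0.15, SE; limma unadjusted p = 0.0104, adjusted p = 0.308). None of the 14 enzymes of arginine and polyamines had an unadjusted p under 0.05. Of the 12 genes of glutathione, taurine and creatine synthesis, GCLM, a subunit of the enzyme that starts glutathione synthesis, was higher in SF/SCL (-0.58), and CKB, the creatine kinase of brain type, was higher in LF/LCL (0.97).

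**Figure D4:**
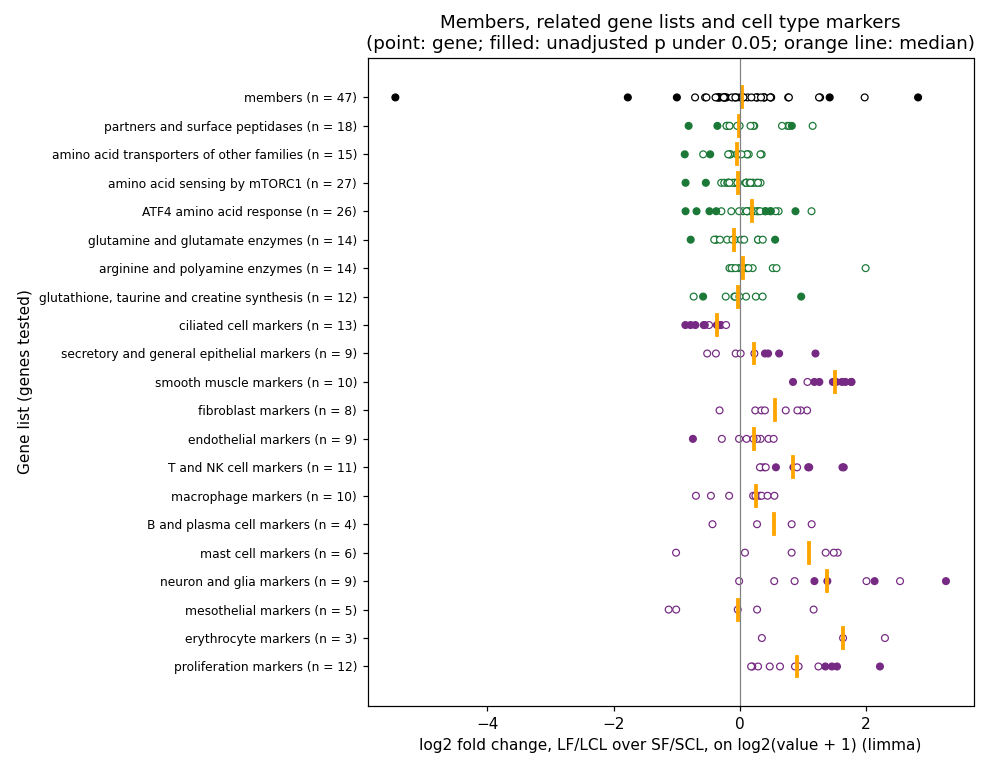
The log2 fold change of LF/LCL over SF/SCL (limma) is plotted for each gene tested among the transporters (black), the related lists (green) and the cell type markers (purple), with filled points for an unadjusted p under 0.05 and an orange line at the median of each list. The medians of the transporters (0.03) and of the related lists (-0.10 to 0.18) lie near 0, and those of smooth muscle (1.499) and ciliated cells (-0.36) do not.

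The makeup of the libraries was described with markers of cell types. Of 109 marker genes tested, none had an adjusted limma p under 0.05 and 36 had an unadjusted p under 0.05 (33%, beside 11.5% of all genes), 27 of them higher in LF/LCL. This count was lower without LF/LCL replicate 1, but the share of all genes in that fit is not given here. All 13 ciliated cell markers tested had a log2 fold change below 0, 8 of them at an unadjusted p under 0.05, with a median of -0.36 (-0.58 to -0.24 with a library left out). All 10 smooth muscle markers tested had one above 0, 9 of them at an unadjusted p under 0.05, with a median of 1.499 (0.97 to 1.96 with a library left out). The 11 T and NK cell markers tested all had one above 0, 6 of them at an unadjusted p under 0.05, with a median of 0.85 and sums of 1803 to 2475 against 964 to 1144. Of the 12 proliferation genes, all with one above 0, 4 had an unadjusted p under 0.05. Their median was 0.90 (0.56 without SF/SCL replicate 3), and their sums overlapped, at 1057 to 1851 against 873 to 1112. General and secretory epithelial markers had a median of 0.23, and their sums overlapped, at 151297 to 177510 in LF/LCL and 149522 to 178423 in SF/SCL. The medians of endothelial (0.22), macrophage (0.26), B and plasma cell (0.55) and mesothelial (-0.03) markers changed sign with a library left out and have no direction. The endothelial median was -0.38 and the mesothelial 0.10 without LF/LCL replicate 1, the macrophage median was -0.22 without LF/LCL replicate 2, and without SF/SCL replicate 2 the endothelial, macrophage and B and plasma cell medians were -0.09, -0.03 and -0.16. That of fibroblast markers was 0.56 (0.03 without LF/LCL replicate 1), and that of neuron and glia markers 1.38 (1.02 without the filter on low values). Mast cell markers had a median of 1.09, which was 0.50 in edgeR and in DESeq2, and 0.36 to 1.72 with a library left out. Erythrocyte markers, whose ALAS2 was at 0, had a median of 1.63, which was 0.35 with the filter on the mean over the SD and 0.44 to 3.21 with a library left out. Adipocyte markers were close to 0 in all libraries, with a sum of at most 12.9. The part of these differences in makeup in the transporter values was not tested.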

How the data were processed

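RNA of the ampulla was measured by sequencing in 5 libraries, 1 per cow. Per the labels and the methods of the study, polyA-selected TruSeq libraries were sequenced as read pairs on an Illumina HiSeq instrument, cleaned with seqyClean, aligned to the masked Bos taurus assembly UMD 3.1 with TopHat2 2.0.8 and Bowtie2 2.1.0, sorted with SAMtools 0.1.18 and counted per gene with HTSeq 0.5.4p2. Only uniquely mapped reads were counted, so that near-identical genes are uncertain, and the use of strand in counting is not given in the sources used here. The deposited values are a normalized signal, in which each gene's read count was divided by a size factor that the authors computed with DESeq 1.12.1. Every value was a whole multiple of 1 step per library (100% within 0.0005 of a whole number), which gave back the reads. LF/LCL replicates 1 and 2 held 13418278 and 16171541 reads, and SF/SCL replicates 1 to 3 held 14785598, 19592174 and 14277845.

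The test was limma 3.58.1 in R 4.3.3 (lmFit, eBayes with trend and robust) on log2(value + 1), a scale that understates the change of low genes, for the 15815 genes with a mean over 5. It was two-sided with no covariates, and p-values were adjusted by Benjamini-Hochberg over all of them at 0.05. Fold changes are LF/LCL over SF/SCL unless stated. No batch is given in the labels. edgeR 4.0.16, DESeq2 1.42.0 (Wald test, NA adjusted p left out) and voom on the recovered reads, pseudocounts of 0.5 and 5, 2 filters, 2 scalings and the omission of each library were alternatives. The procedure was run on simulated counts with the same dispersion for every gene and with changes only in genes with more reads. That run therefore does not show how well differences are found in low or variable genes of these libraries. Values per library are given for genes with an unadjusted p under 0.05 or called by DESeq2, the 10 with the highest mean (which favours long genes), and the heavy chains. Of related lists, up to 4 genes of smallest p with an unadjusted p under 0.05 are named. Per-library values of SLC36A4, SLC38A3, SLC38A5, SLC6A16, the second SLC6A9 gene, S100B and single genes of overlapping groups were added after their values were seen. The values of some genes that enter the counts are not reported here. The genes and lists were chosen with earlier results of these data known. All 60 symbols were found in the RefSeq gene table, which served only to find neighbours. P-values set the difference between groups against the spread between these cows, moderated over all genes in limma. The cows were picked from the ends of the ranking, so the p-values do not cover the spread among all cows of each treatment.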

Additional observations from a re-analysis of the deposited data

How the results depend on the processing

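DESeq2 called 3 transporters at an adjusted p of 0.05, and limma called 0 under each of the other alternatives and with each library left out, as did edgeR and voom. The count at an unadjusted p under 0.05, 9 in limma, was 5 to 10 with a library left out, and 5 without LF/LCL replicate 1 or without SF/SCL replicate 2. The cause was not tested, and the shares of all genes at this p are not given here for these fits. The median log2 fold change of the transporters, 0.027, was -0.0005109 with a pseudocount of 5, -0.008761 with scaling by library size only (which moved the median of all genes to -0.030) and -0.02725 to 0.03492 with a library left out, so it has no direction. The count of transporters whose groups do not overlap, 14, was 16 to 28 with a library left out. It was 28 without LF/LCL replicate 1 and 27 without LF/LCL replicate 2 (beside 56.9% and 57.1% of all genes), where 1 library is left in the group, and 22 without SF/SCL replicate 2 (43%). The count in the related lists was 8 to 23, and that in the marker lists 19 to 43, both lowest without LF/LCL replicate 1.

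The stated rule gave 17 genes with values per library, SLC7A6OS among them, and genes whose values were added later are not counted. Of the 17, 12 kept the sign of their log2 fold change in every one of the 14 alternatives that tested them. SLC38A11 and SLC43A3, among these 12, were not tested with the filter on the mean over the SD. The other 5 had differences close to 0 or rested on 1 library. SLC3A1 was at 0.0001836 with DESeq2, 0.007664 with voom, 0.001514 with TMM scaling and from -0.06554 to 0.06115 with a library left out. SLC7A6OS was at -0.008761 with scaling by library size and -0.004381 to 0.05895 with a library left out. SLC38A10 was at -0.005254 to 0.08509, SLC6A8 at -0.2368 to 0.0917 and SLC1A5 at -0.7339 to 0.3087 with a library left out. Where 1 LF/LCL library was left, its spread was taken to be that of SF/SCL. No paired analysis applied, because the groups were made up of different cows with 1 ampulla library each. With 2 and 3 cows and few reads for low genes, small differences were not detectable. Large estimates did not pass either. SLC43A3, estimated at 7.07-fold from LF/LCL values of 90.3 and 265, had an adjusted limma p of 0.323. Whether a true difference of this size was missed cannot be told from it.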
